A study of Mus musculus with 9 samples.

Results

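The livers of 3 mice fed a high-iron diet were compared with the livers of 3 mice fed a low-iron diet, across every gene counted by RNA sequencing. These 6 libraries were chosen by the diet in their titles and make up 6 of the 9 libraries of the study. The other 3 come from mice on an iron-sufficient diet. They share the estimate of spread, and so bear on which genes pass the test, and they place the sufficient level between or outside the 2 extremes. All 9 mice were wild-type C57BL/6 males, per the sample protocol. They ate AIN-93G, a purified rodent feed made here without soy, from 5 weeks of age for 50 days, and livers were collected at 12 weeks. The feed held 2.5 mg iron per kg in the low-iron group, 37.5 mg per kg in the sufficient group and 1000 mg per kg in the high-iron group. The mice on the low-iron and high-iron diets shared the strain, the sex, the base feed and its duration, and differed by their labels only in dietary iron. Hemojuvelin knockout mice named in the protocol are not analysed here. The comparison asks which liver transcripts differ across the widest span of dietary iron in the study.

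The liver senses body iron and answers through hepcidin, the peptide hormone encoded by Hamp, which causes the iron exporter ferroportin to be degraded and so lowers iron entry into plasma. Iron-loaded liver endothelial cells secrete BMP6, which acts on BMP receptors and the co-receptor hemojuvelin of hepatocytes. The receptors phosphorylate SMAD proteins that switch on Hamp together with feedback genes such as Smad6, Smad7, Id1 and Atoh8. In parallel, iron regulatory proteins bind the messenger RNAs of ferritin and of the transferrin receptor, blocking translation of the former and stabilising the latter when cellular iron is scarce.

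The BMP-responsive element of the hepcidin promoter has the core letters GGCGCC. The upstream sequences of Hamp and of Smad9 are shown because both genes rose on the high-iron diet and both carry that core close to the start of transcription. They come from the RefSeq promoter table for build GRCm38.p6, run from 250 bases before the start to the base before it, and are written 5′ to 3′ on the strand of the gene, with the core in capitals.
Hamp, chr7:30944030-30944279, minus strand: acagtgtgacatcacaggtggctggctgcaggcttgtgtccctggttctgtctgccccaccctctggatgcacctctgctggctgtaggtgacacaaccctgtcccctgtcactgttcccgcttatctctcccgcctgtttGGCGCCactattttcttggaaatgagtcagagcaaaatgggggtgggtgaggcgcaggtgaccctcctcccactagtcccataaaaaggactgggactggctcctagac
Smad9, chr3:54755332-54755581, plus strand: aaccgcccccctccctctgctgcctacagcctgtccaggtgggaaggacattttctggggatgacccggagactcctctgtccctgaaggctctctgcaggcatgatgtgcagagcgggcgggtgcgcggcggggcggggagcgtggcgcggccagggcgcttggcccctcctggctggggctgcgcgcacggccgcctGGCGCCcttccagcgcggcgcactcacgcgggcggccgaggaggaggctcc
In Hamp the core spans bases -109 to -104 from the start, and in Smad9 bases -51 to -46. GGCGCC reads the same on both strands. Within a window of 300 bases around the start (250 before and 50 after), it was present in 23.8% of the 10349 tested genes with a promoter in the table. It was present in 6 of 16 matched genes that rose on the high-iron diet (37.5%) and in 3 of 34 matched genes that fell (8.82%). Of 9 matched BMP-SMAD target genes 4 held it, namely Hamp, Smad9, Id2 and Id4. Hamp, whose promoter gave the core, and Smad9 count among both the 6 and the 4. The core was not found in the windows of Bmp6 and Atoh8, which also rose. These are matches of letters in a window, not measured binding sites.

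Reads in genes numbered 22 M to 28.7 M per library. The ribosomal RNA precursor Rn45s accounted for 43.7% of them in low-iron replicate 1, for 40.5% in high-iron replicate 12 and for 14.4% to 23.8% elsewhere, with 95% Wilson intervals (counting error only) no wider than 0.0415 percentage points. In principal components of log2 CPM, which are counts scaled to library size, low-iron replicate 1 lay at 50.1 on PC1 (41.4% of the variance) and the remaining 5 libraries at -28 to -2.16. On PC2 (25.3%) high-iron mice had values of 7.77, 21.1 and 14.8, while low-iron mice had 7.36, -30.5 and -20.5, so that low-iron replicate 1 lay beside the lowest high-iron library. Across genes, log2 CPM correlated at 0.973 to 0.989 within a diet and at 0.964 to 0.986 between diets. Alb, which encodes albumin and defines hepatocytes, stood at 35159 to 55105 CPM.

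In all, 66 of 13020 tested genes (0.507%) differed between livers of the 2 diets at a Benjamini-Hochberg adjusted p under 0.05 in edgeR's quasi-likelihood test. Of these, 21 (0.161%) were higher and 45 (0.346%) were lower on the high-iron diet. These shares are the background for the counts per gene list given below. The lists were chosen with earlier results of these data known, so a list count above these shares is description only. A change of at least 2-fold was seen in 40 of them, 14 higher and 26 lower. The log2 fold change (high minus low) ran from 0.75 to 6.40 among the higher genes, with a median of 1.27, and from -5.20 to -0.62 among the lower genes, with a median of -1.03. In each of the 66 genes the 3 high-iron libraries lay wholly above or wholly below the 3 low-iron libraries, which was so for 15.7% of all tested genes. At an unadjusted p under 0.05 there were 1257 genes (9.65%), 549 higher and 708 lower. Over all tested genes the log2 fold changes were centred near 0, with a median of -0.01.

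The number of genes past the threshold rested on single libraries. It was 0 without high-iron replicate 8 (1194 genes at an unadjusted p under 0.05), 1 without high-iron replicate 4, namely the imprinted gene Peg3, and 13 without high-iron replicate 12. It was 106, 23 and 6 without low-iron replicates 1, 5 and 9. Without low-iron replicate 1 and high-iron replicate 12 together, the libraries richest in Rn45s, it was 31, of which 18 were among the 66. The sufficient-iron libraries counted too: with the 6 libraries alone 79 genes passed, 49 of them among the 66. None of the 66 changed sign in any of the 19 alternative fits that gave it a value (18 fits for Vtcn1 and 1 predicted gene).

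Some genes of the circadian clock moved with the number in the library titles, which runs 1, 5, 9 for low, 2, 6, 10 for sufficient and 4, 8, 12 for high iron. Dbp, a clock output gene, stood at 5.38, 7.75 and 32.7 CPM in low-iron mice, at 5.39, 5.66 and 27.1 CPM in sufficient-iron mice and at 7.69, 30.8 and 45.5 CPM in high-iron mice, higher at a higher number within each diet. Arntl, which encodes the clock activator BMAL1, was lower at a higher number within each diet, at 15.1, 9.29 and 3.73 CPM, at 14.5, 10.9 and 6.21 CPM, and at 8.99, 3.21 and 2.03 CPM. Dbp and Arntl were singled out after their values were seen, and the time of day of collection is not given in the sources used here. Not every clock gene followed the number. Cry1 was lower at a higher number in sufficient-iron mice (8.71, 5.43 and 4.25 CPM). It was out of order in low-iron mice (6.79, 7.61 and 3.6 CPM) and in high-iron mice (3.91, 2.83 and 2.88 CPM). Of 18 tested clock genes 0 passed between high and low iron. With a block for each run of numbers (1 to 4, 5 to 8 and 9 to 12), a fit added after seeing the data, 40 genes passed, 32 of them among the 66. With the number as a covariate 33 passed, 27 of them among the 66. All 66 had the same sign in both of these fits, which the separation of the diets in these genes made likely.

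**Figure D1:**
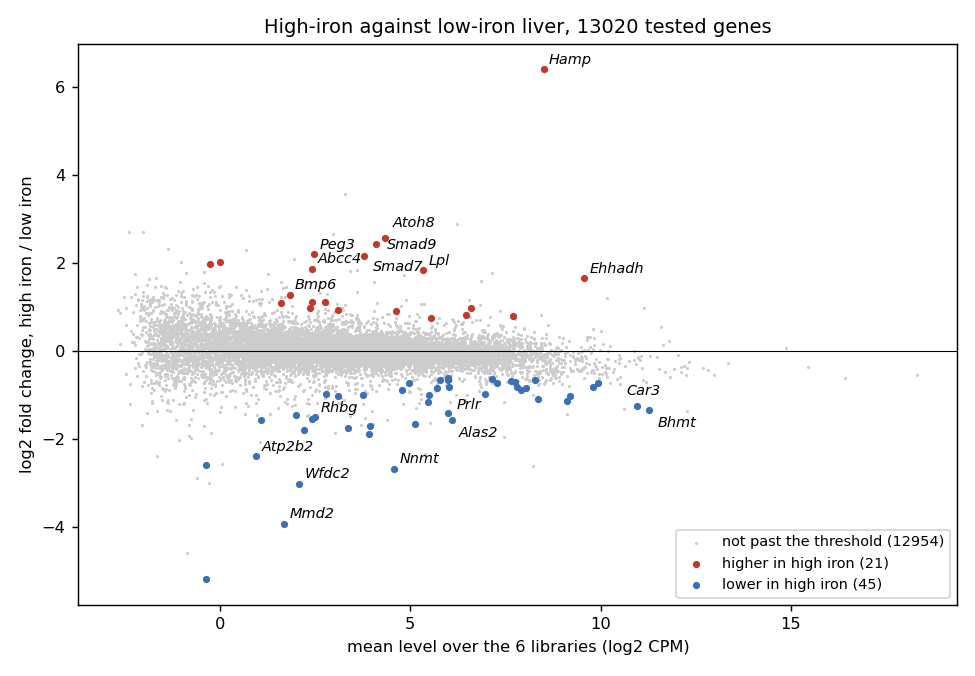
Mean level over the 6 libraries (x axis, log2 CPM) against the log2 fold change of high over low iron (y axis), 1 point per tested gene. Red points mark the 21 genes higher on the high-iron diet and blue points the 45 lower genes, and Hamp stands apart at 6.40.

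**Figure D2:**
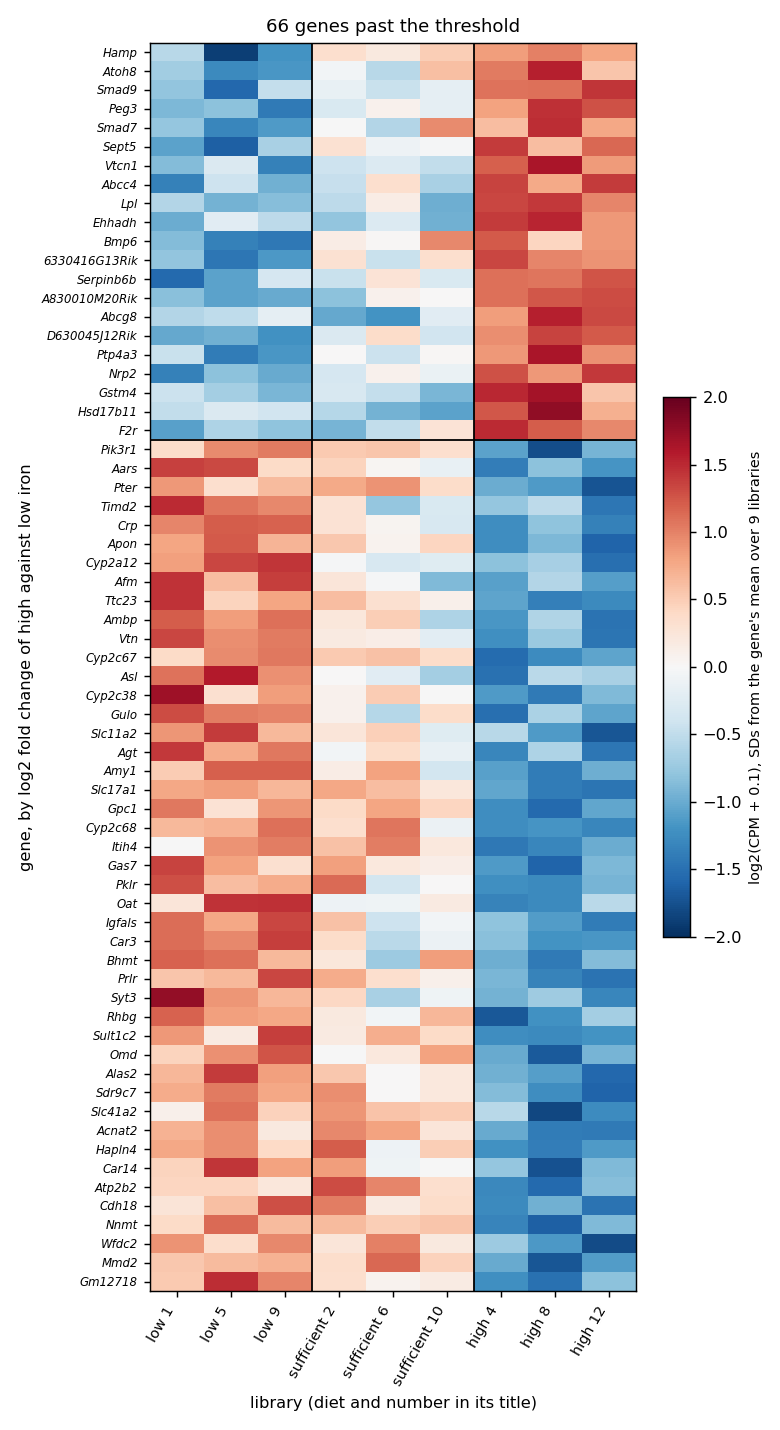
Level of each of the 66 genes (rows) in all 9 libraries (columns), as SDs of log2(CPM + 0.1) from the mean of the gene. The 3 high-iron columns and the 3 low-iron columns differ in every row, because this difference chose the rows. The 3 sufficient-iron columns bore on that choice only through the filter, scaling and spread shared by all 9 libraries.

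Hepcidin and 4 other genes of BMP-SMAD signalling rose on the high-iron diet. Hamp stood at 625, 957 and 563 CPM in high-iron replicates 4, 8 and 12, and at 21.8, 0.805 and 4.62 CPM in low-iron replicates 1, 5 and 9. Every high-iron mouse was far above every low-iron mouse, while the low-iron mice themselves spread widely, with replicate 1 the highest and replicate 5 the lowest. The lowest value rests on 22 Hamp reads, against 10542 to 30429 reads in the high-iron libraries. The log2 fold change was 6.40 ± 0.95 (SE; adjusted p = 0.029), the largest among the genes that rose. It ran from 5.81 without low-iron replicate 5 to 8.17 without low-iron replicate 1 and high-iron replicate 12 over the 19 alternatives.

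Smad9, which encodes a receptor-regulated SMAD of the BMP branch, stood at 25.9, 26 and 34.1 CPM in high-iron mice and at 5.7, 2.96 and 7.29 CPM in low-iron mice (2.43 ± 0.28, adjusted p = 0.0113). Atoh8, a helix-loop-helix transcription factor gene, stood at 32.4, 49.2 and 21.7 CPM against 7.8, 4.83 and 5.29 CPM (2.56 ± 0.39, adjusted p = 0.0246). Smad7, an inhibitory SMAD gene that limits the signal, stood at 17, 31.2 and 18.9 CPM against 6.24, 4.28 and 4.83 CPM (2.15 ± 0.39, adjusted p = 0.045). In each of the 3 genes the groups were well separated, and high-iron replicate 8 was the highest library for Atoh8 and Smad7 but not for Smad9. The ligand gene Bmp6 rose from 2.42, 1.98 and 1.9 CPM in low-iron mice to 5.82, 4.18 and 5.02 CPM in high-iron mice (1.27 ± 0.22, adjusted p = 0.0359).

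Of the 13 tested genes of the BMP-SMAD target list, which includes the ligand gene Bmp6, 5 rose and 0 fell, against 0.161% and 0.346% of all tested genes. Their median log2 fold change was 1.71, against -0.01 for all tested genes, and it ran from 1.47 to 2.16 over the 19 alternatives. In 12 of the 13 every high-iron library was above every low-iron library, which held for 7.59% of all tested genes, and the exception was Tmprss6, the protease gene that restrains hepcidin, at -0.04 (adjusted p = 0.95). Id1, a direct SMAD target, stood at 10.3, 28.1 and 15.1 CPM against 1.95, 1.02 and 1.69 CPM, with a larger fold change than Smad9 but a wider spread (3.56 ± 0.71, adjusted p = 0.0646). The hepcidin paralog Hamp2 stood at 121, 154 and 117 CPM against 43.4, 5.3 and 6.59 CPM (2.89 ± 0.69, adjusted p = 0.12). Both Hamp genes were lifted in low-iron replicate 1 relative to the other low-iron mice, and because the 2 are near copies and reads aligning to several places were left out, the split of reads between them is uncertain. Without high-iron replicate 4 or 8, 0 of the 5 calls remained (adjusted p = 0.0565 to 0.163 and 0.0513 to 0.161), and Smad9 alone remained without low-iron replicate 9. Without high-iron replicate 12 Smad9 and Atoh8 remained, without low-iron replicate 1 Smad9, Hamp and Bmp6, and without low-iron replicate 5 Smad9 and Hamp. Without a filter on low counts Smad9 and Bmp6 alone passed, with limma-voom Smad9, Atoh8 and Hamp, with the block for runs of title numbers Smad9 and Hamp, and with the number as a covariate Smad9 (Hamp adjusted p = 0.0509).

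**Figure D3:**
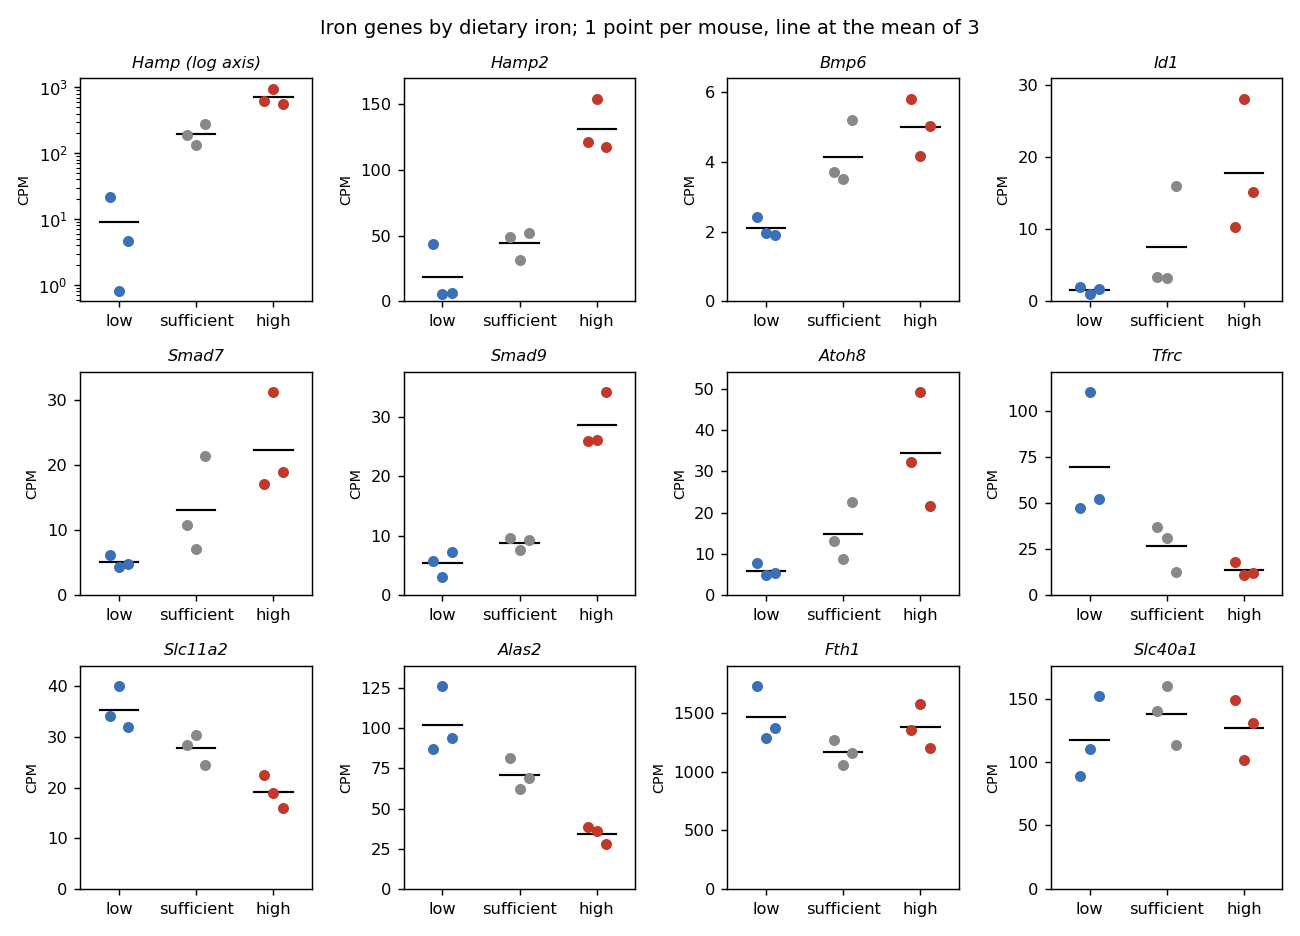
CPM of 12 iron genes (y axis, a log axis for Hamp) by diet (x axis), 1 point per mouse with a line at the mean of 3. Hamp, Bmp6, Smad7, Smad9 and Atoh8 are higher in each high-iron mouse than in each low-iron mouse, Slc11a2 and Alas2 are lower, and Fth1 and Slc40a1 overlap.

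The genes of the sensing machinery upstream of hepcidin did not pass the test. Of 13 tested genes (receptors, co-receptors, SMADs and regulators) 0 rose and 0 fell, with log2 fold changes from -0.35 to 0.64 and a median of 0.03. The transferrin receptor 2 gene Tfr2, an iron sensor of hepatocytes, had the lowest p, at 159, 172 and 160.5 CPM in high-iron mice against 183, 228 and 217 CPM in low-iron mice (-0.35 ± 0.12, adjusted p = 0.293). Its libraries did not overlap, but the difference did not pass. The hemojuvelin gene, listed as Hfe2, stood at 80.4 ± 4.35 CPM (mean ± SD, n = 3) against 93.9 ± 25.4 CPM (-0.22 ± 0.19, adjusted p = 0.774).

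Among genes that move and store iron, the divalent metal importer gene Slc11a2 fell. Slc11a2 stood at 22.4, 18.9 and 15.9 CPM in high-iron mice and at 34.2, 40 and 32 CPM in low-iron mice (-0.89 ± 0.15, adjusted p = 0.0328). The transferrin receptor gene Tfrc, whose messenger RNA is stabilised by iron regulatory proteins, had the larger difference, at 18.2, 10.7 and 12.1 CPM against 47.5, 110.2 and 52.2 CPM. The groups did not overlap, and replicate 5 was the highest low-iron mouse, but Tfrc missed the threshold (-2.35 ± 0.43, adjusted p = 0.0506) and passed it in 7 of the 19 alternatives. The ferritin genes, whose control by iron is mainly at translation, overlapped between the diets. Fth1 stood at 1354, 1583 and 1201 CPM against 1729.7, 1292 and 1375 CPM (-0.09 ± 0.15, adjusted p = 0.898), and Ftl1 at 3348 ± 761 against 3042 ± 991 CPM (mean ± SD, n = 3; 0.14 ± 0.23, adjusted p = 0.891). The exporter gene Slc40a1, encoding ferroportin, also overlapped, at 149, 102 and 131 CPM against 89.3, 111 and 152 CPM (0.11 ± 0.21, adjusted p = 0.905). The signs of Fth1, Ftl1, Slc40a1 and Hfe2 changed in some alternatives. Of the 24 tested genes of iron uptake, storage and export, 0 rose and 1 fell, with a median of 0.07.

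Of the haem synthesis genes, Alas2 alone passed the test. Alas2 encodes the erythroid enzyme that starts the pathway, and it fell from 86.9, 126 and 93.7 CPM in low-iron mice to 38.4, 35.8 and 28.1 CPM in high-iron mice, a 3.00-fold difference without overlap (-1.58 ± 0.18, adjusted p = 0.0113). Alas1, the form used by hepatocytes, stood at a mean of 107 against 176 CPM (-0.73, adjusted p = 0.78), and ferrochelatase (Fech), which inserts iron into the ring, at 169 against 129 CPM (0.39 ± 0.11, adjusted p = 0.19). Of 13 tested genes of the pathway, 0 rose and 1 fell, with a median of -0.03. Alas2 is also a marker of erythroid cells. Of 13 erythroid markers in the files, 4 globin genes (Hba-a1, Hba-a2, Hbb-b1 and Hbb-b2) had no reads in any of the 6 libraries and 3 markers were tested. Whether globin reads were removed before counting is not given in the sources used here, so these zeros do not measure red-cell RNA. The summed level of the 13 was 39.2 to 53.1 CPM in high-iron mice and 102 to 140 CPM in low-iron mice, most of it from Alas2 itself in each group, and the part of erythroid cells in the fall of Alas2 was not tested. In bulk liver, fewer cells of a type and less RNA per cell cannot be told apart. Without high-iron replicate 4 or 8, neither Alas2 nor Slc11a2 passed (adjusted p = 0.0565 to 0.0719 and 0.076 to 0.15), and Slc11a2 also missed without high-iron replicate 12 or low-iron replicate 5 or 9.

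Haem scavenging and breakdown (10 tested, median 0.00) and iron-sulfur cluster genes (26 tested, median -0.04) had 0 genes past the threshold in either direction. Slc48a1, which encodes a haem transporter, stood at 57.5 ± 7.77 against 35.7 ± 5.81 CPM (mean ± SD, n = 3; 0.69 ± 0.14, adjusted p = 0.0639). Haem oxygenase 1 (Hmox1), the inducible enzyme that opens the haem ring, overlapped between the diets, at 18.4, 19.6 and 26.4 CPM against 18.9, 15.1 and 20.6 CPM (0.24 ± 0.17, adjusted p = 0.728). Nuclear-encoded subunits of oxidative phosphorylation, the respiratory chain and ATP synthase, had 0 of 42 genes past the threshold. Their median was -0.21 with 41 of 42 values negative, but it turned to 0.06 without low-iron replicate 1 and high-iron replicate 12.

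Among genes of oxidant defence and glutathione conjugation, 1 of 43 tested rose and 0 fell, with a median of 0.02. The gene that rose was Gstm4, a mu-class glutathione transferase, at 120.2, 125 and 91.2 CPM in high-iron mice against 68.9, 64.2 and 59.9 CPM in low-iron mice (0.80 ± 0.14, adjusted p = 0.0339). Its neighbour in the family Gstm2 had the opposite sign, at 49 ± 3.93 against 98.3 ± 32.6 CPM (mean ± SD, n = 3; a 2.00-fold lower level, adjusted p = 0.0739). Members of this family are close copies of each other, so their counts are uncertain. G6pdx, which supplies NADPH, stood at 24.5, 21.7 and 24.1 CPM against 14.7, 7.54 and 11.3 CPM (1.08 ± 0.28, adjusted p = 0.148). Gstm4 lost its call without high-iron replicate 4 or 8 and without low-iron replicate 5 or 9 (adjusted p = 0.161, 0.15, 0.118 and 0.138).

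Genes of lipid handling rose and fell. Ehhadh, a bifunctional enzyme of the peroxisomal beta-oxidation spiral, stood at 1231, 1340.0 and 891 CPM in high-iron mice and at 279, 452 and 373 CPM in low-iron mice (1.65 ± 0.23, adjusted p = 0.0172). Lpl, the lipoprotein lipase that releases fatty acids from circulating triglyceride, stood at 66.2, 69.5 and 52.9 CPM against 20.2, 16.2 and 17.1 CPM (1.82 ± 0.23, adjusted p = 0.0125). Hsd17b11, which encodes a lipid-droplet dehydrogenase, stood at 259, 308 and 217 CPM against 146, 156 and 151 CPM (0.79 ± 0.14, adjusted p = 0.0359). In each of the 3 genes all high-iron mice were above all low-iron mice, and the low-iron mice lay close together for Lpl and Hsd17b11. Of 29 tested peroxisomal and Cyp4a genes 1 rose and 0 fell. Pex11a (1.05 ± 0.20, adjusted p = 0.0544), a peroxisome division gene, and Cyp4a31 (1.56 ± 0.34, adjusted p = 0.0804), a fatty acid omega-hydroxylase gene, missed the threshold. The median of these 29 was 0.22, and 12 had an unadjusted p under 0.05 on the higher side, against 4.22% of all tested genes. Genes of mitochondrial fatty acid oxidation (25 tested) had 0 past the threshold and a median of -0.09.

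On the lower side of lipid and sugar metabolism stood Acnat2 and Pklr. Acnat2, which encodes a peroxisomal acyl-CoA amino acid N-acyltransferase, fell from 16.5, 19.1 and 11.9 CPM in low-iron mice to 5.52, 4.28 and 4.22 CPM in high-iron mice (-1.75 ± 0.23, adjusted p = 0.0142), and its count is uncertain because of a close paralog. Pklr, the liver pyruvate kinase at the last step of glycolysis, fell from 518, 404 and 422 CPM to 202, 199 and 227 CPM (-1.10 ± 0.20, adjusted p = 0.0432). The high-iron mice lay close together in both genes. Of 25 tested lipogenic and glycolytic genes 0 rose and 1 fell, with a median of -0.05. Without high-iron replicate 4 or 8 none of Ehhadh, Lpl, Hsd17b11, Acnat2 and Pklr passed (adjusted p = 0.0596 to 0.188 and 0.0855 to 0.168). Without low-iron replicate 9 Acnat2 alone passed, without low-iron replicate 5 Acnat2 and Ehhadh, without low-iron replicate 1 these and Lpl, and without high-iron replicate 12 Lpl, Ehhadh and Hsd17b11. Lpl and Car3 are also markers of fat cells. Of 11 such markers 7 were tested, 4 with positive and 3 with negative values and a median of 0.62, and Plin1 and Lep had no reads in the 6 libraries. Their summed level was 1221 to 1413 CPM in high-iron mice against 2657 to 3140 CPM in low-iron mice, most of it from Car3. The part of fat cells in the rise of Lpl was not tested.

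A sterol exporter and a conjugate exporter rose. Abcg8, a subunit of the canalicular sterol exporter, stood at 108, 144 and 132 CPM in high-iron mice against 60.8, 62.9 and 71.7 CPM in low-iron mice (0.97 ± 0.17, adjusted p = 0.0339). Its partner subunit Abcg5 stood at 68.5, 102 and 86.6 CPM against 52.3, 52 and 50.7 CPM, without overlap, and missed the threshold (0.73 ± 0.15, adjusted p = 0.072). Abcc4, which encodes MRP4, a basolateral exporter of bile salts and other organic anions, stood at 9.33, 6.35 and 9.56 CPM against 1.64, 3 and 2.11 CPM (1.86 ± 0.30, adjusted p = 0.0313). The organic anion transporter gene Slc22a7 differed the other way, at 4.41, 4.75 and 4.27 CPM against 17.4, 15 and 14.6 CPM (-1.80 ± 0.36, adjusted p = 0.0607). Of 21 tested sterol and bile transporters 2 rose and 0 fell, against 0.161% and 0.346% of all tested genes. The list as a whole leaned lower, with 13 negative and 8 positive values and a median of -0.17. At an unadjusted p under 0.05, 4 were higher and 7 lower. The calls of Abcg8 and Abcc4 were lost without any 1 of the high-iron replicates (adjusted p = 0.0855 to 0.15) and without low-iron replicate 5 or 9, and that of Abcg8 also without low-iron replicate 1.

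Cholesterol synthesis genes had 0 of 25 past the threshold, yet 24 of the 25 values were positive, with a median of 0.31 that ran from 0.18 to 0.60 over the alternatives. Hsd17b7, a late-pathway enzyme, stood at 131, 132 and 159.6 CPM in high-iron mice against 101, 83 and 76.5 CPM in low-iron mice (0.70 ± 0.14, adjusted p = 0.0544). Idi1, which isomerises the isoprene unit, stood at 383, 382 and 552 CPM against 292, 222 and 237 CPM (0.81 ± 0.17, adjusted p = 0.072). Both genes were without overlap between the groups. Among 15 tested genes of bile acid synthesis 0 passed, with a median of -0.16.

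A group of cytochrome P450 genes, which encode haem enzymes of drug and steroid oxidation, fell on the high-iron diet. Of 38 tested genes of families 1 to 3, 4 fell and 0 rose, against 0.346% and 0.161% of all tested genes. Cyp2c67 stood at 43.6, 47 and 49.8 CPM in high-iron mice against 73.5, 85.5 and 88.1 CPM in low-iron mice (-0.82 ± 0.11, adjusted p = 0.0142). Cyp2c68 stood at 30, 30.7 and 29.4 CPM against 57, 57.9 and 66.3 CPM (-1.01 ± 0.14, adjusted p = 0.0193). The high-iron values of Cyp2c68 spanned less than 2 CPM, and the diets were far apart in both genes. Cyp2c38 (-0.85 ± 0.14, adjusted p = 0.0331) and Cyp2a12 (-0.71 ± 0.11, adjusted p = 0.0313) fell as well. The Cyp2c genes are close copies, so the split of reads among them is uncertain. Over the 38 genes 31 values were negative, 23 had no overlap between the diets with the high-iron mice lower (8.15% of all tested genes), and the median was -0.45, which ran from -0.46 to -0.34 over the alternatives. Cyp2e1, the ethanol-oxidising form, overlapped, at 4039.7 ± 314 against 4331 ± 795 CPM (mean ± SD, n = 3; -0.10 ± 0.20, adjusted p = 0.911).

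Among conjugating enzymes 1 gene fell. Sult1c2, a cytosolic sulfotransferase, stood at 2.71, 2.67 and 2.78 CPM in high-iron mice against 7.96, 5.63 and 10.3 CPM in low-iron mice (-1.55 ± 0.22, adjusted p = 0.0195). It was the only 1 of 22 tested glucuronosyltransferase and sulfotransferase genes past the threshold, and Sult1a1 (-0.72 ± 0.14, adjusted p = 0.0544) and Sult1b1 (-0.77 ± 0.17, adjusted p = 0.0795) missed it. Of 14 carboxylesterase genes 0 passed (median -0.26), with Ces1c at 769 ± 19.4 against 1249.9 ± 106 CPM (mean ± SD, n = 3; -0.70 ± 0.14, adjusted p = 0.0544). These families also hold close copies. The 4 P450 calls and that of Sult1c2 were lost without high-iron replicate 4, 8 or 12 and without low-iron replicate 9 (adjusted p = 0.0539 to 0.161), and those of Cyp2c68 and Cyp2a12 also without low-iron replicate 5.

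A few genes typical of either zone of the liver lobule fell. Among 18 tested pericentral genes, expressed near the hepatic vein, 3 fell and 0 rose (median -0.42), against 0.346% and 0.161% of all tested genes. Of the 18 values 14 were negative and 4 positive. Their summed level overlapped, at 5339 to 6241 CPM in high-iron mice against 6238 to 8240.5 CPM in low-iron mice. The ammonium transporter gene Rhbg stood at 2.24, 2.86 and 3.74 CPM in high-iron mice against 9.44, 7.9 and 7.72 CPM in low-iron mice (-1.51 ± 0.21, adjusted p = 0.0191). Oat, ornithine aminotransferase, stood at 309, 315 and 414 CPM against 553, 860.0 and 867 CPM (-1.14 ± 0.19, adjusted p = 0.0328). Gulo, the last enzyme of ascorbate synthesis in mice, stood at 167, 212 and 189 CPM against 359.8, 334 and 329.6 CPM (-0.85 ± 0.13, adjusted p = 0.0294). The diets did not overlap in any of these genes, and for Oat low-iron replicate 1 was the nearest to the high-iron mice.

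Among 22 tested periportal genes, 1 fell and 0 rose (median -0.39), against 0.346% and 0.161% of all tested genes. The summed level of the 23 periportal genes in the files did not overlap, at 7018 to 8205 CPM in high-iron mice against 8579 to 11405 CPM in low-iron mice. Asl, the urea cycle enzyme that splits argininosuccinate, stood at 135, 176 and 170.4 CPM in high-iron mice against 275, 315 and 261 CPM in low-iron mice (-0.82 ± 0.14, adjusted p = 0.0328). Otc, another urea cycle enzyme, stood at 282 ± 16.7 against 402 ± 21 CPM (mean ± SD, n = 3; -0.51 ± 0.11, adjusted p = 0.0698). Bhmt, which remethylates homocysteine with betaine, fell from 3887, 3739.5 and 3039 CPM to 1449, 1192 and 1522 CPM (-1.36 ± 0.23, adjusted p = 0.0341). Aars, a cytosolic alanyl-tRNA synthetase, fell from 185, 183 and 151 CPM to 104, 117 and 109 CPM (-0.65 ± 0.12, adjusted p = 0.0432), as the only 1 of 35 tested genes of amino acid and unfolded protein stress. Without high-iron replicate 4 or 8, or low-iron replicate 5 or 9, Rhbg, Oat, Gulo and Asl were no longer past the threshold (adjusted p = 0.0511 to 0.161), and Rhbg alone remained without high-iron replicate 12. Bhmt and Aars lost their calls without any of the 6 libraries compared (adjusted p = 0.0563 to 0.161 and 0.0558 to 0.205).

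Carbonic anhydrases, which interconvert carbon dioxide and bicarbonate, had 2 of 8 tested genes lower and 0 higher. The shares over all tested genes were 0.346% lower and 0.161% higher. Car3, a cytosolic form, stood at 1294, 1126 and 1140.1 CPM in high-iron mice against 2779, 2605 and 3078 CPM in low-iron mice (-1.25 ± 0.15, adjusted p = 0.0125). Car14, a membrane-bound form, stood at 7.86, 4.18 and 7.32 CPM against 17.2, 32.4 and 21.8 CPM (-1.90 ± 0.32, adjusted p = 0.0339). Car2 had the opposite sign and missed the threshold, at 8.76 ± 1.11 against 4.79 ± 0.397 CPM (mean ± SD, n = 3; 0.87 ± 0.17, adjusted p = 0.0544). Neither call remained without high-iron replicate 4, 8 or 12 or low-iron replicate 9 (adjusted p = 0.0541 to 0.139), and Car3 alone passed without low-iron replicate 5.

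Several genes of plasma proteins secreted by the liver fell on the high-iron diet. Of 28 tested acute phase genes 2 fell and 0 rose (median -0.41), against 0.346% and 0.161% of all tested genes. Crp, C-reactive protein, stood at 235, 258 and 229.6 CPM in high-iron mice against 373, 391 and 388 CPM in low-iron mice (-0.67 ± 0.10, adjusted p = 0.029), with little spread in either group. Itih4, an inter-alpha-trypsin inhibitor heavy chain, stood at 355, 373 and 418 CPM against 604, 848 and 888 CPM (-1.03 ± 0.17, adjusted p = 0.0328). Vtn, vitronectin, stood at 625, 707 and 589 CPM against 1196, 1077 and 1109.7 CPM (-0.82 ± 0.12, adjusted p = 0.0191), and Ambp, the precursor of bikunin and alpha-1-microglobulin, at 709, 811 and 657 CPM against 1257, 1149 and 1225 CPM (-0.74 ± 0.14, adjusted p = 0.049). Vtn and Ambp are on none of the gene lists. Crp, Itih4, Vtn and Ambp separated the diets by more than the range within either diet except for Itih4. Agt (angiotensinogen, -0.89 ± 0.13), Afm (afamin, -0.73 ± 0.14) and Apon (apolipoprotein N, -0.69 ± 0.11), chosen here after their values were seen, fell as well, with adjusted p of 0.0199, 0.0496 and 0.0301.

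Coagulation and complement factors showed many small differences and 0 of 38 tested genes past the threshold. Of the 38, 36 values were negative and 25 had an unadjusted p under 0.05 on the lower side (5.44% of all tested genes). In 27 the diets did not overlap, with the high-iron mice lower (8.15% of all tested genes). The median was -0.44 and ran from -0.45 to -0.39 over the alternatives. The terminal complement genes C8a (237 ± 26.4 against 363 ± 29.9 CPM, -0.62 ± 0.12, adjusted p = 0.0544) and C9 (109 ± 22 against 246 ± 84.3 CPM, -1.17 ± 0.23, adjusted p = 0.0587) were nearest to the threshold (means ± SD, n = 3). Antithrombin (Serpinc1) stood at 906, 993 and 849 CPM in high-iron mice against 1564, 1253 and 1355 CPM in low-iron mice (-0.60 ± 0.12, adjusted p = 0.0665). Transferrin (Trf), the plasma iron carrier, stood at 7059, 6998 and 5793 CPM against 8393, 10093 and 10410.0 CPM (-0.54 ± 0.16, adjusted p = 0.195).

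These lower levels of plasma protein, P450 and zonation genes stood beside lower levels of hepatocyte markers in general. All 16 tested hepatocyte markers had negative values, 0 past the threshold, with a median of -0.40 that ran from -0.49 to -0.12 over the alternatives. Their summed level was 62224 to 77119 CPM in high-iron mice and 83457 to 98338 CPM in low-iron mice, without overlap, and Alb reads made up most of it. In the main fit the medians of the lists of coagulation factors (-0.44), P450 genes (-0.45) and acute phase genes (-0.41) were of about this size. Without low-iron replicate 1 and high-iron replicate 12 together, the hepatocyte median was -0.12 and the P450 median -0.34. Over the alternatives the coagulation median ran from -0.45 to -0.39 and the acute phase median from -0.49 to -0.27. The part of a general hepatocyte shift in these lists was not tested. Fewer hepatocytes and less RNA of these genes per hepatocyte cannot be told apart. Without high-iron replicate 4, 8 or 12 or low-iron replicate 9, 0 of the 7 calls of these plasma protein genes (Crp, Itih4, Vtn, Ambp, Agt, Afm and Apon, grouped after their values were seen) remained (adjusted p = 0.0804 to 0.219), without low-iron replicate 5 Agt alone remained, and without low-iron replicate 1 Ambp and Afm were lost.

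**Figure D4:**
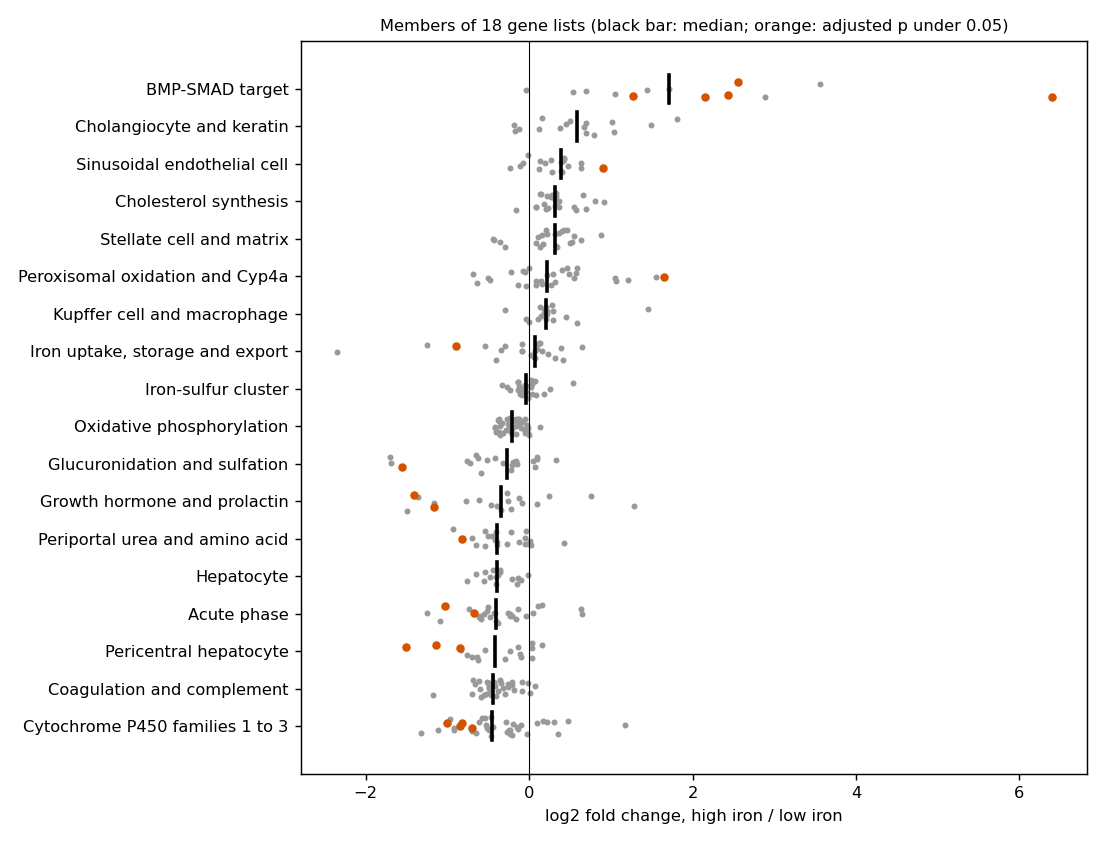
Log2 fold change of high over low iron (x axis) for the tested members of 18 gene lists (y axis), 1 point per gene, with a black bar at the median and orange for adjusted p under 0.05. BMP-SMAD targets lie to the right with a median of 1.71, while P450 genes, coagulation factors and hepatocyte markers lie to the left with medians of -0.45, -0.44 and -0.40.

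In growth hormone and prolactin signalling 2 genes fell. Prlr, the prolactin receptor, stood at 40.2, 33.2 and 30.9 CPM in high-iron mice against 79.7, 83.1 and 115 CPM in low-iron mice (-1.41 ± 0.18, adjusted p = 0.0125). Igfals, the subunit that stabilises circulating IGF1, stood at 30.4, 27 and 24.3 CPM against 61.6, 54.3 and 66.8 CPM (-1.16 ± 0.15, adjusted p = 0.0142). Igf1 itself did not overlap between the diets, at 348, 309.7 and 324 CPM against 572, 416 and 514 CPM, but missed the threshold (-0.61 ± 0.13, adjusted p = 0.072). The leptin receptor gene Lepr had the opposite sign, at 10 ± 3.94 against 4.15 ± 1.18 CPM (mean ± SD, n = 3; 1.28 ± 0.30, adjusted p = 0.104). Of 19 tested genes of this axis 2 fell and 0 rose, against 0.346% and 0.161% of all tested genes. The median of the 19 was -0.35. The calls of Prlr and Igfals were lost without high-iron replicate 4, 8 or 12 (adjusted p = 0.0596 to 0.0855), and that of Igfals also without low-iron replicate 9.

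Some of the largest falls were in genes that belong to none of these pathways. Nnmt, nicotinamide N-methyltransferase, stood at 6.02, 4.53 and 9.08 CPM in high-iron mice against 29.3, 58.1 and 36.6 CPM in low-iron mice, a 6.43-fold difference (-2.69 ± 0.29, adjusted p = 0.0113). Mmd2, which encodes a membrane protein of the progestin and adipoQ receptor family, stood at 0.568, 0.157 and 0.481 CPM against 5.3, 6.04 and 6.66 CPM (-3.94 ± 0.53, adjusted p = 0.0142). Wfdc2, a secreted protein with whey acidic protein domains, stood at 1.4, 0.849 and 0.374 CPM against 8.66, 4.68 and 9.2 CPM (-3.02 ± 0.49, adjusted p = 0.0328). In Mmd2 and Wfdc2 the high-iron level was near or below 1 CPM. Atp2b2, a plasma membrane calcium pump gene, stood at 0.568, 0.409 and 0.908 CPM against 3.43, 3.44 and 2.78 CPM (-2.40 ± 0.40, adjusted p = 0.0328). The dehydrogenase gene Sdr9c7 (-1.66 ± 0.21, adjusted p = 0.0125) and the magnesium transporter gene Slc41a2 (-1.70 ± 0.31, adjusted p = 0.0496) fell too, as did the matrix genes Hapln4 (-1.81 ± 0.29) and Omd (-1.57 ± 0.26), with adjusted p of 0.0313 and 0.0328.

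Among ungrouped rises, Peg3, a paternally expressed zinc finger gene, stood at 6.96, 10.8 and 9.56 CPM in high-iron mice against 2.18, 2.3 and 1.52 CPM in low-iron mice (2.19 ± 0.23, adjusted p = 0.0113). It was the only 1 of 14 tested imprinted genes past the threshold, the median of which was 0.02. Serpinb6b, an intracellular protease inhibitor (1.11 ± 0.19, adjusted p = 0.0347), and Ptp4a3, a protein phosphatase (0.93 ± 0.16, adjusted p = 0.0328), rose at levels of 7.37 ± 0.279 and 11.2 ± 1.46 CPM in high-iron mice (mean ± SD, n = 3). With limma-voom Mmd2, Wfdc2, Atp2b2 and Hapln4 did not pass. Peg3 alone of the genes in this and the preceding paragraph kept its call without high-iron replicate 4 (adjusted p = 0.0215), and 0 kept it without replicate 8 (Peg3 0.0513). Peg3 and Nnmt alone kept it without high-iron replicate 12 or low-iron replicate 9, and with them Sdr9c7, Mmd2 and Wfdc2 without low-iron replicate 5, while without low-iron replicate 1 Wfdc2 lost its call.

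Among markers of other liver cells 1 gene rose. Nrp2, a co-receptor for VEGF and semaphorins found on endothelium, rose from 15.8, 18.3 and 17.4 CPM in low-iron mice to 32.9, 29.3 and 34.1 CPM in high-iron mice (0.90 ± 0.11, adjusted p = 0.0125). The groups were separated by more than the range within either, and the call was lost without high-iron replicate 4 or 8 or low-iron replicate 9 (adjusted p = 0.0596, 0.0513 and 0.0699). It was the only 1 of 19 tested sinusoidal endothelial markers past the threshold. The median of these markers was 0.39, running from 0.05 to 0.49 over the alternatives, and their summed level overlapped at 588 to 795 CPM against 434 to 657 CPM. Nrp1 stood at 96.7 ± 9.05 against 71.9 ± 2.89 CPM (mean ± SD, n = 3; 0.43 ± 0.13, adjusted p = 0.218). The part of endothelial RNA content in the rise of Nrp2 and of Bmp6, which liver endothelium secretes, was not tested.

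Cholangiocyte and keratin markers had 0 of 16 past the threshold, a median of 0.58 and a summed level of 383 to 396 CPM in high-iron mice against 302 to 352 CPM in low-iron mice. The keratin gene Krt23 missed the threshold, at 13.3, 20.4 and 16.3 CPM against 2.26, 7.75 and 3.84 CPM (1.81 ± 0.34, adjusted p = 0.0507). Kupffer cell markers (18 tested, median 0.20), stellate cell and matrix genes (23 tested, 0.31), lymphocyte markers (19 tested, 0.17) and cell cycle genes (29 tested, 0.03) had 0 genes past the threshold. The summed Kupffer markers overlapped, at 364 to 451 CPM against 190 to 431 CPM, and the sign of their median changed in 3 alternatives. Of 42 interferon response genes 0 passed (median -0.15). Of 14 pancreas markers 11 had no reads in the 6 libraries.

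The sufficient-iron livers bore on the calls of the 66 genes only through the shared filter, scaling and estimate of spread. Their level lay between the 2 diets in mean log2 CPM for 58 of these genes and outside for 8. The same count over all tested genes was not made. For Hamp, with sufficient-iron mice at 186, 134 and 276 CPM, the step from low to sufficient iron was 4.55 ± 0.88 on the log2 scale and the step from sufficient to high iron 1.85 ± 0.76 (adjusted p = 0.446 and 0.517). For Bmp6 these steps were 1.00 ± 0.22 and 0.27 ± 0.20 (adjusted p = 0.446 and 0.679), and for Atoh8 1.34 ± 0.38 and 1.22 ± 0.36 (adjusted p = 0.446 and 0.294). None of these single steps of Hamp, Bmp6 and Atoh8 passed the test. For Smad9 the step from sufficient to high iron passed (1.71 ± 0.26, adjusted p = 0.0341). Its step from low to sufficient iron did not (0.73 ± 0.27, adjusted p = 0.446). For the step from low to sufficient iron, 0.446 was the lowest adjusted p among the 66 genes, and many of them shared it. The steps share the sufficient-iron libraries and are given side by side only.

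For other genes the sufficient-iron level lay by the low-iron level. The sufficient-iron level of Ehhadh was 316, 436 and 285 CPM, overlapping the low-iron mice, and that of Nnmt was 36.3, 32.3 and 33.9 CPM, within the range of the low-iron mice. Mmd2 stood at 4.08, 12.3 and 4.83 CPM and Atp2b2 at 8.13, 5.87 and 3.12 CPM in sufficient-iron mice, with means above those of the low-iron mice. The difference between sufficient and high iron passed the test for Ehhadh (adjusted p = 0.0265). It also passed for Nnmt, Mmd2 and Atp2b2 (adjusted p = 0.0194 each). Between low and sufficient iron none of these genes passed. Crp (323, 308 and 284 CPM), Vtn (893, 882 and 807 CPM) and Igfals (50.7, 35.1 and 40 CPM) stood near the middle between low and high iron. The distance of the sufficient-iron level from the midpoint of the other 2 diets was tested in the same fit, as a contrast independent of the high-against-low difference in a balanced fit. It was past the threshold in edgeR for 0 of 13020 genes (0%), with 1337 (10.3%) at an unadjusted p under 0.05, while DESeq2 called 60 and the fit with the title number as a covariate 7. Of the 66 genes, 23 had an unadjusted p under 0.05 for this distance. On the log2 scale the sufficient-iron level lay nearer to the low-iron level in 15 of the 21 higher genes and in 37 of the 45 lower genes. Whether tested genes in general lean the same way was not counted, so these counts describe the 66 genes only.

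**Figure D5:**
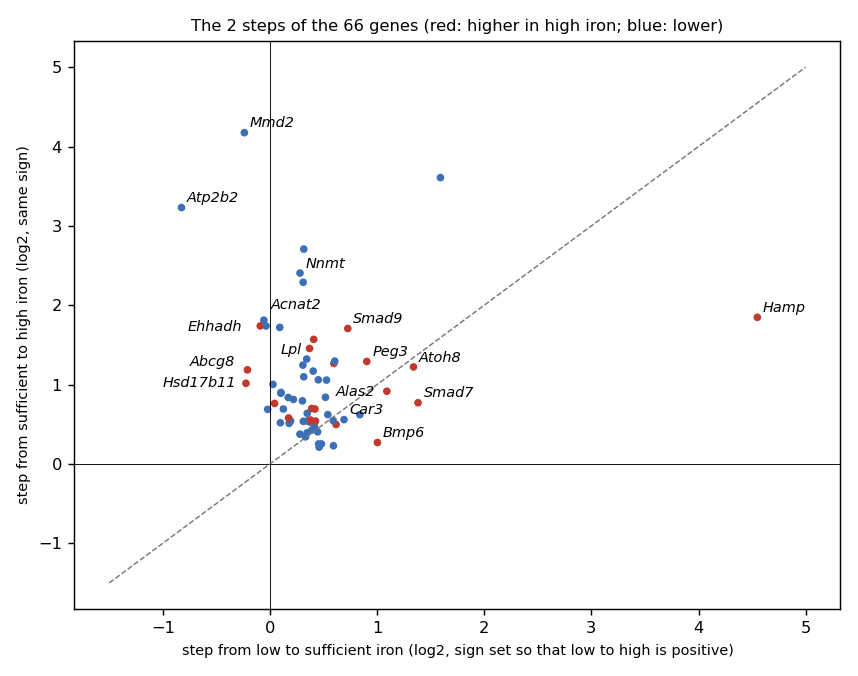
Step from low to sufficient iron (x axis) against the step from sufficient to high iron (y axis) for the 66 genes, on the log2 scale, with the sign set so that the direction from low to high iron is positive; the dashed line marks equal steps. Hamp lies far to the right at 4.55 and 1.85, and Mmd2 and Atp2b2 lie left of 0, where the sufficient-iron level is beyond the low-iron level.

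The genes with the lowest p for that distance were on the higher side Atp2b2, Rsad2 and Cmpk2, and on the lower side Cyp4a10, Krt23 and Gsta2. Rsad2, an interferon-induced antiviral gene, stood at 15, 21.6 and 25 CPM in sufficient-iron mice, above both the low-iron mice (7.33, 12.9 and 16.2 CPM) and the high-iron mice (5.68, 5.32 and 5.07 CPM) in mean level. Its distance from the midpoint was 1.34 on the log2 scale (adjusted p = 0.229). Cyp4a10, an omega-hydroxylase gene, had the opposite shape, at 187, 185 and 153 CPM in sufficient-iron mice against 299, 344 and 294 CPM in low-iron and 469.8, 578 and 364 CPM in high-iron mice. For Cyp4a10 each sufficient-iron mouse was below every mouse of both other diets (distance -1.13, adjusted p = 0.131). Between high and low iron its difference was 0.59 ± 0.17 (adjusted p = 0.19).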

How the data were processed

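Liver RNA of the 6 mice compared, and of the 3 sufficient-iron mice that share the fit, was isolated with RNeasy columns, made into TruSeq RNA libraries and sequenced on an Illumina HiSeq, per the labels' protocols. The authors deposited, for each library, unnormalised read counts of 23420 gene symbols plus 5 category entries, without coordinates. FastQC and 2 builds (mm10 and mm9, roles unstated) appear in the submitters' processing notes. Aligner, counter and strandedness: not given in the sources used here, so overlapping and antisense genes cannot be told apart. The category entries, left out of all sizes and tests, show that reads outside genes, ambiguous reads (0.477% to 0.917% of uniquely aligned reads) and reads aligned to several places were not counted. The protocol gives 3 mice per diet. Depth was 22 M to 33.8 M gene reads over the 9 libraries.

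The main test was edgeR 4.0.16 (R 4.3.3): filterByExpr (13020 genes kept, 5625 had no reads), TMM scaling, and a robust quasi-likelihood fit to the 3 diets, whose 9 libraries share the spread, with F-tests and Benjamini-Hochberg adjustment over all tested genes at 0.05. CPM are on scaled library sizes, log2 CPM used a prior count of 2, and the SE of a log2 fold change was derived from its F statistic. Common biological variation was 0.177. The script was tested on simulated data. Single-gene exact permutation of 3 against 3 cannot go below p = 0.1 and was not used. Promoters of 50 of the 66 genes were matched by symbol or synonym.

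The comparison, the 43 gene lists and the naming rule were chosen with earlier results of these data known. The rule names a panel of 14 iron genes. Per direction it takes the 12 largest changes at 1 CPM or more without overlap, the 5 lowest p and the 5 largest CPM differences. It adds up to 4 lowest-p members per list and the 3 lowest p per direction of the midpoint contrast. Predicted genes are counted, not named. Further members of described lists (Tmprss6, Alas1, Cyp2e1, Alb, Id2, Id4, Dbp, Arntl) were named after their values were seen. Alternatives were other filters (none, or 1 CPM in 3 libraries), DESeq2 size factors, upper-quartile scaling, DESeq2 1.42.0, limma-voom (limma 3.58.1) with and without sample weights, the 6 libraries alone, Rn45s and Lars2 left out, libraries left out, and other thresholds; 2 fits with terms for the title number were added after seeing the data.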

Additional observations from a re-analysis of the deposited data

How the results depend on the processing

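The labels share no replicate number between the high-iron (4, 8, 12) and low-iron (1, 5, 9) libraries, so the main fit has no pairing. A replicate block by runs of title numbers, added after seeing the data, gave 40 genes (12 higher, 28 lower; 32 of the 66) and 0 for the midpoint distance, and the title number as a covariate gave 33 (27 of the 66) and 7. None of the 66 called genes changed sign in the 19 planned fits (18 for Vtcn1 and 1 predicted gene), which the separation of the diets in these genes made likely. None was past the threshold in each of the 19, the median gene passed in 13, Peg3 in 18 and Slc41a2 in 5. Against 66 genes, DESeq2 called 365 (120 higher, 245 lower) and limma-voom with sample quality weights 378 (132 and 246), the 66 among both. The count was 31 without low-iron replicate 1 and high-iron replicate 12, 0 at an adjusted p under 0.01, 168 under 0.1 and 40 with a 2-fold minimum. Without filter it was 83, with the 1 CPM filter 63, with DESeq2 size factors 68, with upper-quartile scaling 66, with limma-voom 64, with the 6 libraries alone 79 and without Rn45s and Lars2 62. With the 6 libraries alone 49 of the 66 remained, and Oat, Asl, Cyp2a12, Cyp2c38, Gstm4, Hsd17b11, Aars, Ptp4a3, Serpinb6b, Slc41a2 and Afm, among the genes described, did not. Without filter Hamp, Atoh8, Smad7, Car14 and Slc41a2 did not pass. Ambp, Afm and Slc41a2 also missed with the 1 CPM filter, upper-quartile scaling or Rn45s and Lars2 left out. Leaving out 1 library gave 0 to 112 genes, 0 without high-iron replicate 8, 106 without low-iron replicate 1 and 112 without sufficient-iron replicate 6. The cause of these moves was not tested. With 1 library left out, an arm holds 2 mice and the spread is pooled over the diets.

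For the distance of the sufficient-iron level from the midpoint, 0 genes in edgeR became 60 with DESeq2 and 1 with limma-voom sample weights, and 0 to 1 with 1 library left out. Signs changed for genes near 0. With 1 library, or low-iron replicate 1 and high-iron replicate 12 together, left out, log2 fold changes ran from -0.072 to 0.35 for Slc40a1, from -0.19 to 0.13 for Fth1, from -0.033 to 0.59 for Ftl1 and from -0.35 to 0.052 for Hfe2. Leaving out that pair gave -0.072, 0.13, 0.59 and 0.052 for these 4 genes. The median changed sign in some alternative for 19 of 42 lists, and for none of the BMP-SMAD, P450, coagulation, acute phase, zonation, hepatocyte, cholesterol and peroxisomal lists. Scaling moved the all-gene median by at most 0.02 on the log2 scale. With 3 mice per diet, differences in genes under 1 CPM and changes well under 2-fold are measured with low precision.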

Other observations

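Ccnd1, the cyclin D1 gene, stood at 36.7, 43.6 and 41.8 CPM in high-iron mice and at 20, 13 and 21.7 CPM in low-iron mice, without overlap (1.16 ± 0.29, adjusted p = 0.126), while the cell cycle list had a median of 0.03. Its sufficient-iron level was 31.7, 72.9 and 39.4 CPM, with replicate 6 above all 8 other libraries.

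Marco, a scavenger receptor gene of macrophages, stood at 0.468, 2.01 and 2.5 CPM in low-iron mice, 15.4, 6.44 and 9.82 CPM in the sufficient-iron mice and 2.64, 3.71 and 8.71 CPM in high-iron mice (high against low 1.45 ± 0.55, adjusted p = 0.4). G0s2, which inhibits a triglyceride lipase, stood at 51.6, 41.3 and 70.1 CPM in high-iron mice and at 146, 77.8 and 131 CPM in low-iron mice (-1.13 ± 0.26, adjusted p = 0.104).

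Of the 66 genes past the threshold 33 were on none of the 43 gene lists, 4 had predicted or clone names and 4 had a mean under 1 CPM.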
